A study of Saccharomyces cerevisiae with 9 samples.

Results

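Wild-type yeast growing in rich glucose medium was described from the 6 wild-type cultures of a series of 9 arrays. They were chosen by their strain label and numbered 1 to 6 as in the sample titles. The strain was BY4742, a haploid laboratory strain of Saccharomyces cerevisiae of α mating type that lacks working HIS3, LEU2, LYS2 and URA3 genes and grows on rich medium. Per the labels' protocols, overnight cultures were diluted into YEPD, a rich medium with 2% glucose, and shaken at 225 rpm and 30 °C until they reached an OD600 of 0.5. Cells were broken with glass beads in a cycloheximide-containing buffer, RNA was isolated with spin columns after debris had been spun out, and 1 Affymetrix Yeast_2 array was run per culture. The 6 cultures were duplicates of 3 isolates. The labels do not say which cultures share an isolate, so they are not known to be 6 independent samples and no p-value is given.

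Budding yeast given plenty of glucose ferments it to ethanol even in air. Glucose represses the genes for respiration, for glucose synthesis and for the use of other sugars, and growing cells devote much of their transcription to ribosomes. As glucose falls, cells switch on transporters that bind glucose more tightly and begin to store glycogen and trehalose. Iron is handled by a separate system: when it is short, the activators Aft1 and Aft2 switch on genes for reductases, transporters and cell wall proteins that help the cell take it up.

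One probe set per gene was used, and 5449 genes were measured. A gene was called above background when its log2 value passed the 95th percentile of the fission yeast probe sets on the same array, which have no target in these cells and lay at 4.68 to 4.72 on this measure. On all 6 arrays 5325 genes were above background (97.7% of those measured), and 83 genes were above it on none (1.52%). The median gene had a level of 10.39 on the log2 scale, the 5th and 95th percentiles were 6.30 and 13.22, and the highest level was 14.63. Probe sets differ in how strongly they bind, so levels of different genes are given side by side and do not compare amounts of RNA. Levels correlated at 0.994 to 0.998 between arrays (Pearson r across 5449 genes, which are not independent). No arrays were copies, since at most 31 of 10928 probe sets had equal values in any pair.

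The strain markers went with the labels. MF(ALPHA)1, the α-factor pheromone gene, was at 13.83 ± 0.04 (SD, n = 6), and STE3, the receptor for the pheromone of a cells, was at 12.34 ± 0.05. All 5 α-specific probe sets lay between 11.06 and 13.89 in every culture. The 7 genes specific to a cells lay between 5.09 and 7.82, with AGA2, an agglutinin subunit, at 5.31 ± 0.18 and STE6, the a-factor exporter, at 7.69 ± 0.10. The ranges of these marker sets did not overlap, yet all 7 a-specific genes were above background, so a level above background does not by itself show a working transcript. URA3 was at 3.06 ± 0.21 and LYS2 at 4.41 ± 0.16, above background on 0 arrays, and LEU2 at 4.63 ± 0.12 was above it on 1. HIS3, which is only partly deleted in this background, was at 11.48 ± 0.12, and MET17 and LOS1, both intact, were at 12.11 ± 0.15 and 11.11 ± 0.16. Genes needed only in haploid cells were present, from STE18, a G protein subunit, at 8.73 ± 0.16 to GPA1, the matching Gα subunit, which lay between 11.91 and 12.08. Of 16 genes of meiosis and sporulation, 15 were above background, near the 97.7% of all measured genes. The levels went from 4.22 for DIT2, a spore wall gene above background on 0 arrays, to 9.55 for IME2, a meiotic kinase.

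The 3 lists with the highest median levels were cytosolic ribosomal proteins, glycolysis and translation factors. Genes for 128 cytosolic ribosomal proteins had a median level of 13.97, against 10.39 for all genes, the 16 measured genes of glycolysis a median of 13.73, and translation factors 13.56. Cytosolic Hsp70 and Hsp90 chaperones followed at 13.05, core histones and cell wall mannoproteins at 13.01 each, and pyrimidine synthesis at 12.88. Ribosome biogenesis genes lay lower, at 12.34, and genes that form ethanol and acetate had a median of only 11.25, with members from 6.27 to 14.45. All measured members of these lists were above background. Towards the other end were genes that glucose is known to repress or that another cell type uses. The median was 6.98 for gluconeogenesis and the glyoxylate cycle, 7.58 for galactose and sucrose use and 6.74 for meiosis. Hexose transporters, a mixed list with members from 3.55 to 13.14, had a median of 6.33. Genes of the respiratory chain, with a median of 11.43, and of the citric acid cycle, with 11.48, lay above the median of all genes, and mitochondrial ribosomal proteins lay near it at 10.81. In 44 of 50 lists every measured member was above background.

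**Figure D1:**
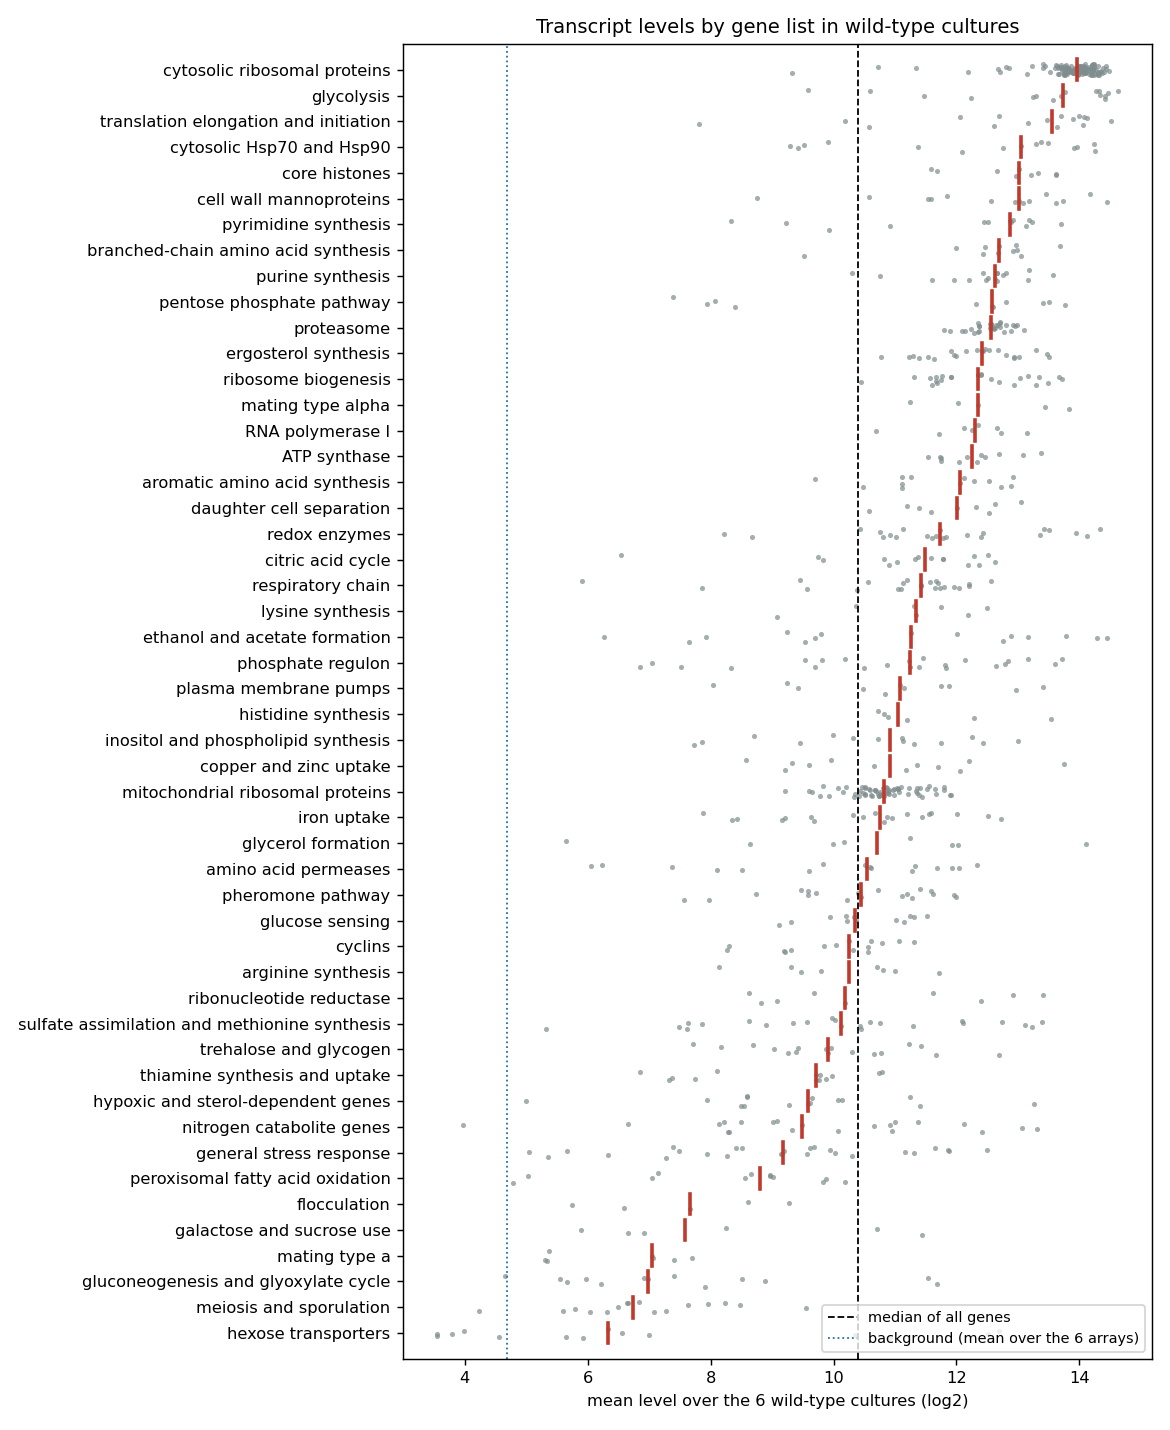
Mean level of each gene (grey points) in 50 gene lists over the 6 wild-type cultures, on a log2 axis; the vertical red bar marks each list's median, the dashed line the median of all genes and the dotted line the background. Cytosolic ribosomal proteins, with a median of 13.97, are at the top, and hexose transporters, with 6.33, at the bottom, where 4 members lie left of the background line on all arrays.

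The hexose transporters split sharply. HXT3 and HXT1, carriers with low affinity that serve at high glucose, were at 13.14 ± 0.13 and 12.51 ± 0.11, and HXT2, a carrier with higher affinity, was at 12.69 ± 0.23. HXT10, HXT13, HXT14 and HXT15, paralogs with little known role in glucose uptake, were between 3.55 and 3.99 on average and above background on 0 arrays. GAL2, the galactose permease, was at 5.92 ± 0.12. Among genes for other carbon sources, GAL1, the galactokinase, was at 8.25 ± 0.14 and GAL10, the epimerase of the same pathway, at 5.90 ± 0.15. FBP1, the phosphatase that runs glycolysis backwards, was at 5.67 ± 0.25, and PCK1, which makes phosphoenolpyruvate from oxaloacetate, was at 7.41 ± 0.11. MDH2 and CIT2, whose products are a cytosolic malate dehydrogenase and a peroxisomal citrate synthase, were the 2 members of the gluconeogenesis and glyoxylate list above 11, at 11.68 ± 0.38 and 11.54 ± 0.08.

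Some paralog families contained members at the top of the scale beside members far down it, and others had members at similar levels. In all, 42 families with 100 named genes were looked up, 94 genes were measured and all 94 were above background. That is near the 97.7% of all measured genes. TDH3, the main glyceraldehyde-3-phosphate dehydrogenase, had the highest level of any gene, 14.63 ± 0.01, and its paralog TDH1 was at 11.47 ± 0.06. PDC1, the main pyruvate decarboxylase, was at 14.45 ± 0.02, and PDC5 and PDC6 were at 9.80 ± 0.09 and 6.27 ± 0.17. ADH1, which makes ethanol, was at 14.28 ± 0.02, whereas ADH2, which consumes it and is repressed by glucose, was at 7.92 ± 0.12. CDC19, the main pyruvate kinase, was at 14.42 ± 0.03 and PYK2 at 9.58 ± 0.15. SSA2, a constitutive cytosolic Hsp70, was at 14.24 ± 0.03, and SSA3 and SSA4, known from stressed cells, were at 9.43 ± 0.11 and 9.51 ± 0.06. HSC82, the constitutive Hsp90, was at 13.96 ± 0.06 and its heat-inducible paralog HSP82 at 11.37 ± 0.16. COX5A, the subunit of cytochrome oxidase used in air, was at 12.04 ± 0.15, and COX5B, its hypoxic form, at 9.46 ± 0.20. ENO2 and ENO1, encoding enolase, were closer, at 14.34 ± 0.02 and 13.24 ± 0.08. TRX2 and TRX1, for thioredoxin, were at 13.43 ± 0.04 and 13.36 ± 0.04. BAT1 and BAT2, for branched-chain aminotransferase, were at 12.97 ± 0.06 and 12.68 ± 0.07, and GSY2 and GSY1, for glycogen synthase, at 9.96 ± 0.19 and 9.91 ± 0.79. Families were not counted by the gap between their members.

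The cultures differed little for most genes. The median SD over the 6 cultures was 0.0886 on the log2 scale, the 90th percentile was 0.164 and the 99th 0.380. The SD depended on level: its median was 0.158 among genes between 4.5 and 6, 0.0862 between 10 and 12 and 0.0243 between 14 and 15. Saturation of probes at high levels was not tested. The 5 genes with the smallest SD were all in that last group: RPS21B, RPS3, RPL18B and RPL5, which encode ribosomal proteins, and GPM1, phosphoglycerate mutase. RPS21B lay between 14.47 and 14.48 in every culture, an SD of 0.006. Of 128 ribosomal protein genes, 7 had an SD over 0.1, and the median was 0.0336. Their median level was 13.97, and genes of any kind at such levels had small SDs. Between 13 and 14 the median SD of all genes above background was 0.0524 and the 90th percentile 0.0989. For 24 of the 128 the probe set can bind near-identical transcripts.

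In 48 genes (0.901% of the 5325) the highest culture was at least 2-fold over the lowest, and in 4 it was at least 4-fold over. Of the 48, 29 had the same order of pairs: cultures 1 and 4 were the highest and cultures 2 and 5 the lowest. Among all genes above background, cultures 1 and 4 were the 2 highest in 13.8%. In 10 of the 48 cultures 3 and 6 were the 2 highest, against 5.78% of all genes, and in the other 9 neither pair was on top. Cultures 2 and 5 were the 2 lowest in 38 of the 48, against 14.4% of all genes, and the 2 highest in 0 of them, against 9.71%. The 48 were picked for their spread, so these counts describe them and are no test. Whether cultures 1 and 4, 2 and 5, or 3 and 6 share an isolate is not given by the labels and was not assumed.

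**Figure D2:**
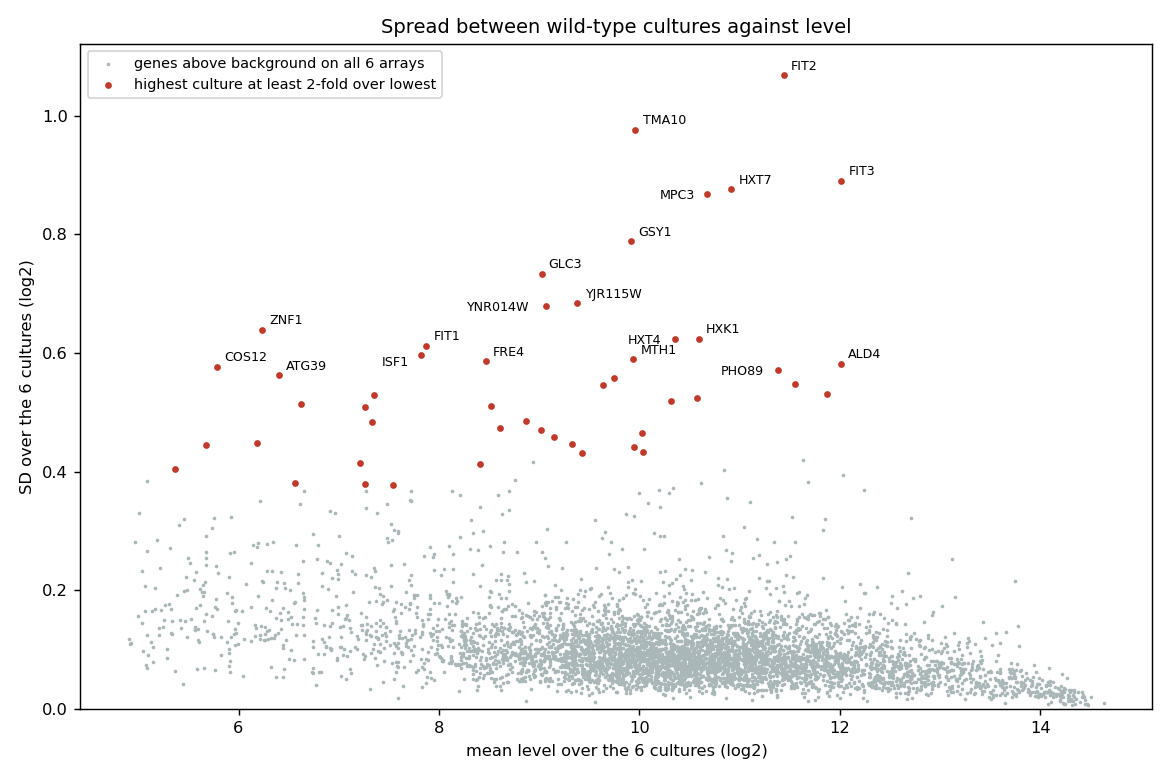
SD over the 6 wild-type cultures against mean level, both on the log2 scale, for the 5325 genes above background on all arrays (grey) and the 48 whose highest culture is at least 2-fold over the lowest (red); the 20 with the largest SD are named. The spread narrows towards the top of the scale, with none of the 48 at a level above 13, and FIT2 has the largest SD, 1.07.

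The largest group, high in cultures 1 and 4, was mixed. It included genes that act where glucose enters the cell and where it is stored, beside others such as PHO89, ATG39 and TMA10. HXT7 encodes a transporter with high affinity for glucose, and its probe set is of a kind that can also bind the near-identical HXT6, which was not analysed here. It was at 11.89, 9.88, 11.01, 11.91, 10.03 and 10.78 in cultures 1 to 6, a 4.09-fold range. HXT4, another high-affinity carrier, was at 11.12, 9.59, 10.29, 11.04, 9.82 and 10.24, a 2.89-fold range. In both genes cultures 1 and 4 were close together at the top, cultures 2 and 5 at the bottom, and cultures 3 and 6 in the middle of the range. The low-affinity carriers followed the same order over a narrow range. HXT1 was at 12.60, 12.33, 12.52, 12.65, 12.45 and 12.51, a 1.25-fold range, and HXT3 had a 1.26-fold range with its highest values in cultures 4 and 1. HXT2 had a 1.46-fold range. In 7 of 10 transporters above background cultures 1 and 4 were the 2 highest, against 13.8% of all genes above background.

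Glucose is next phosphorylated, by 1 of 3 enzymes, and the 3 genes differed in spread. HXK1, the hexokinase that glucose represses, was at 11.38, 10.18, 10.25, 11.42, 10.15 and 10.18 in cultures 1 to 6, a 2.40-fold range. Here cultures 3 and 6 did not lie in the middle: cultures 2, 3, 5 and 6 were all between 10.15 and 10.25. GLK1, the glucokinase, was at 12.68, 11.89, 12.23, 12.63, 11.79 and 12.22, a 1.86-fold range with the middle position of cultures 3 and 6 again. HXK2, the main hexokinase of cells growing on glucose, was at 13.73, 13.69, 13.68, 13.77, 13.62 and 13.68, a 1.11-fold range. Among the remaining steps of glycolysis, PGI1, PFK1, PFK2, FBA1, TPI1, PGK1 and GPM1 had SDs of at most 0.0937. For pyruvate kinase, CDC19 had an SD of 0.03, and PYK2 one of 0.15, with cultures 1 and 4 highest at 9.80 and 9.73. Cultures 1 and 4 were the 2 highest in 7 of 16 glycolysis genes, against 13.8% of all genes above background.

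Some regulators of these genes varied too. Cultures 1 and 4 were the 2 highest in 3 of 12 glucose sensing genes, against 13.8% of all genes above background. MTH1, a repressor of hexose transporter genes that is degraded when glucose is sensed, was at 10.56, 9.36, 9.91, 10.72, 9.32 and 9.77, a 2.63-fold range. Its paralog STD1 had a 1.16-fold range, and SNF3, a glucose sensor gene, had an SD of 0.11. RGT2, the other sensor gene, was at 8.89, 9.28, 9.23, 9.01, 9.16 and 9.09, so it was lowest in culture 1 and highest in culture 2. MIG2, a repressor that is itself induced by glucose, was at 11.76, 11.14, 11.68, 11.91, 11.14 and 11.48, so it was high in the same cultures as the high-affinity carriers. REG2, a subunit of the Glc7 phosphatase that acts in glucose repression, followed HXK1 closely, at 9.48, 8.52, 8.65, 9.50, 8.46 and 8.61.

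Genes of glycogen synthesis had some of the widest ranges. GSY1, a glycogen synthase, was at 10.81, 8.98, 10.03, 10.61, 8.96 and 10.09 in cultures 1 to 6, a 3.60-fold range. GSY2, the other synthase, was at 10.27, 9.83, 9.86, 10.14, 9.84 and 9.82, a 1.36-fold range in which only cultures 1 and 4 stood above the others. GLC3, the branching enzyme, was at 9.84, 8.42, 8.82, 10.01, 8.25 and 8.80, a 3.37-fold range. GLG1, one of the glycogenin primers, had a 1.88-fold range and GLG2, its paralog, a 1.13-fold range. Breakdown genes moved in the same cultures as well: GPH1, glycogen phosphorylase, had a 1.82-fold range with cultures 4 and 1 highest. GDB1, the debranching enzyme, did not, with cultures 3 and 6 highest at 9.65 and 9.62. IGD1, which encodes an inhibitor of that enzyme, had a 2.50-fold range with cultures 1 and 4 highest. PGM2, the phosphoglucomutase that links glycogen to glycolysis, had an SD of 0.28, and PGM1, its paralog, 0.05.

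Trehalose genes showed the order of cultures over narrower ranges. TSL1, a regulatory subunit of trehalose synthase, was at 10.20, 9.49, 9.89, 10.29, 9.55 and 9.79, a 1.74-fold range. TPS1 and TPS2, its catalytic subunits, had ranges of 1.39-fold and 1.49-fold, and the trehalases NTH1 and NTH2 of 1.19-fold and 1.29-fold, with cultures 1 and 4 highest in each. Over the 17 trehalose and glycogen genes, 14 had cultures 1 and 4 as the 2 highest, against 13.8% of all genes above background. The mean deviation of the list from its 6-culture mean was 0.27, -0.20, 0.01, 0.25, -0.28 and -0.05 in cultures 1 to 6. In gluconeogenesis and the glyoxylate cycle, 8 of 12 genes above background had cultures 1 and 4 highest, against the same 13.8%. MDH2 was at 12.06, 11.22, 11.81, 12.01, 11.20 and 11.80, while the mitochondrial and peroxisomal paralogs MDH1 and MDH3 had SDs of 0.08 and 0.06. CAT8, an activator of gluconeogenic genes, had a 1.78-fold range, and ADY2, an acetate transporter, a 1.81-fold range.

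Several genes of mitochondrial fuel use belonged to the same group. MPC3, the subunit of the mitochondrial pyruvate carrier known from respiring cells, was at 11.74, 9.82, 10.71, 11.62, 9.68 and 10.48, a 4.16-fold range. MPC2, the subunit known from fermenting cells, had a 1.19-fold range and MPC1, their shared partner, a 1.41-fold range. ALD4, the mitochondrial aldehyde dehydrogenase, was at 12.70, 11.42, 11.95, 12.72, 11.44 and 11.83, a 2.46-fold range. ALD6, its main cytosolic counterpart on glucose, had a 1.26-fold range. ZNF1, an activator of respiratory genes, had a 3.01-fold range with culture 4 highest at 7.09, and RGI1, named for its induction in respiratory growth, had a 2.57-fold range. TMA10, a protein found with ribosomes, had the second largest SD of any gene, 0.98, and was at 10.98, 8.76, 9.88, 11.09, 8.96 and 10.08.

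Among the maltose genes, which glucose represses, MAL31 was in this group and 3 others followed its order over ranges under 2-fold. MAL31, a maltose permease, was at 10.37, 9.15, 9.71, 10.31, 9.06 and 9.86, a 2.48-fold range. MAL33, the activator gene next to it (YBR297W beside YBR298C), had a 1.94-fold range and MAL11, a permease at another locus, a 1.83-fold range. MAL32, the maltase of the cluster, had a 1.67-fold range, on a probe set that can also bind near-identical genes. IMA1, an isomaltase, had a 1.25-fold range, highest in culture 1 and lowest in culture 5. PHO89 (YBR296C), a sodium-coupled phosphate transporter separated from MAL33 only by the short gene TYC1, was at 12.06, 10.88, 11.16, 12.16, 10.97 and 11.08. The rest of the phosphate regulon varied less. PHO84, the main high-affinity phosphate transporter, was at 13.67, 13.56, 13.65, 13.77, 13.48 and 13.50, and PHO5, the secreted acid phosphatase, at 11.69, 11.51, 11.36, 11.73, 11.45 and 11.03. Cultures 1 and 4 were the 2 highest in 8 of 23 genes of the regulon, against 13.8% of all genes above background. The list's mean had a range of 0.25, with culture 6 lowest.

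The position of cultures 3 and 6 divided the 29 genes with cultures 1 and 4 highest and cultures 2 and 5 lowest. In 23 of them both cultures 3 and 6 lay above the lowest 25% of the gene's own range, as in HXT7, where they were at 55.8% and 44.4% of the way up, and in GSY1, at 57.8% and 60.7%. In 3 genes, HXK1, PHO89 and REG2, both were in the lowest 25%, at 7.51% and 2.51% for HXK1. In the other 3, ATG39, BDH2 and MRK1, they fell on either side of it. The genes most like HXT7 over the 6 cultures, among 169 genes with an SD of at least 0.25, were LEE1, MAL11, TSL1, YAK1 and MAL33, with Pearson r of 0.992 to 0.997. Without the 2 cultures farthest from the median of HXT7, which were cultures 2 and 4, r was 0.989 to 0.999. Culture 1 stayed in at the top and culture 5 at the bottom, so this r says little about dependence on the extreme cultures. Those most like GSY1 were YNR014W, YLR177W, VHR2, CWP1 and MDH2, with r of 0.993 to 0.997. Those most like HXK1 were REG2, PHO89, ICY1, ATG39 and BDH2, with r of at most 0.995. Here the 2 farthest cultures were 1 and 4, both at the top. Without them r was -0.05 for BDH2 and 0.70 to 0.86 for the others. Different cultures were left out for HXT7 and HXK1, so their reduced r values are not comparable. All these values have n = 6 cultures and are descriptions of likeness.

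**Figure D3:**
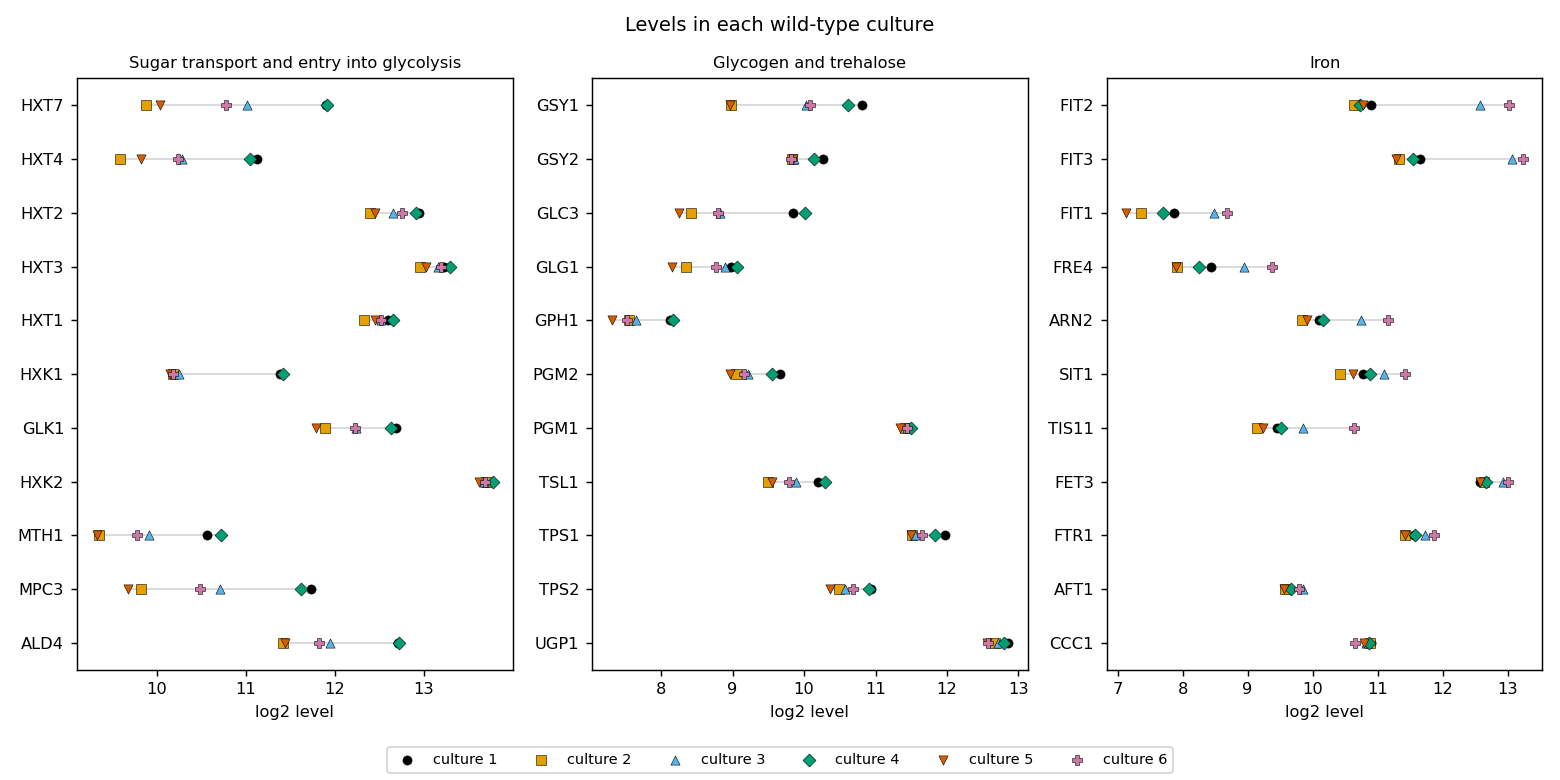
Level (log2) of named genes in each of the 6 wild-type cultures, 1 symbol per culture and 1 row per gene, for sugar transport and its neighbours (left), glycogen and trehalose (centre) and iron (right). HXT7, HXK1 and GSY1 spread widely and HXK2 and PGM1 hardly at all; cultures 1 and 4 are at the right of the first panel and cultures 3 and 6 at the right of the third in every row but CCC1, with FIT2 at 12.58 and 13.03.

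A different pair of cultures was high for iron uptake genes. FIT2, a cell wall mannoprotein that retains iron carriers, had the largest SD of all genes and was at 10.90, 10.63, 12.58, 10.73, 10.78 and 13.03 in cultures 1 to 6, a 5.26-fold range. FIT3, of the same family, was at 11.65, 11.33, 13.07, 11.54, 11.28 and 13.23, a 3.86-fold range, and FIT1 at 7.87, 7.36, 8.48, 7.70, 7.14 and 8.69. In all 3 genes cultures 3 and 6 stood above the other 4, with no overlap. FIT2 and FIT3 are neighbours (YOR382W and YOR383C), 1 of 2 neighbouring pairs among the 48 genes. The other pair was RDS1 and AAD3, a zinc-cluster regulator and a putative aryl-alcohol dehydrogenase, which were also highest in cultures 3 and 6. The margin was small for AAD3, at 9.33 in culture 6 and 9.24 in culture 4, and its probe set can also bind near-identical transcripts. The log2 range of RDS1 was 1.06, or 0.89 once the trend along gene length described below was removed.

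Siderophores are iron-binding molecules made by other microbes, and yeast has a transporter family for them. ARN2 was at 10.10, 9.84, 10.74, 10.15, 9.92 and 11.16, a 2.49-fold range. SIT1 had a 1.9965-fold range, just under the 2-fold limit, ENB1 a 1.65-fold range and ARN1 a 1.32-fold range, each with culture 6 highest and culture 3 next. Reductases free the iron for uptake. FRE4 was at 8.44, 7.91, 8.94, 8.25, 7.90 and 9.37, a 2.77-fold range, whereas FRE1, a main surface reductase, was at 12.45, 12.37, 12.77, 12.49, 12.30 and 12.72, a 1.38-fold range. FET3 and FTR1, the oxidase and permease of the high-affinity uptake complex, had ranges of 1.35-fold and 1.36-fold with the same 2 cultures on top. FRE4 was not in the list of iron uptake genes. Among other iron genes looked up, FRE6 and FRE5 had cultures 6 and 3 highest, FRE5 being above background on 5 arrays. MRS4 and FTH1 did not: both were highest in culture 1, with ranges of 1.27-fold and 1.16-fold.

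TIS11, also known as CTH2, encodes a protein that promotes decay of mRNAs for iron-using enzymes when iron is short. It was at 9.46, 9.14, 9.85, 9.51, 9.23 and 10.63, so culture 6 stood well above culture 3. Its paralog CTH1 had a 1.10-fold range. HMX1, a haem oxygenase, was highest in culture 6 at 8.87 but not in culture 3, at 8.40. ACO1, an iron-sulphur enzyme of the citric acid cycle, was at 12.36, 12.66, 12.44, 12.40, 12.37 and 12.02, lowest in culture 6. LYS4, an iron-sulphur enzyme of lysine synthesis, had a 1.11-fold range, at 11.25 in both culture 5 and culture 6. An effect of TIS11 on these transcripts was not tested. CCC1, which loads iron into the vacuole, was at 10.90, 10.89, 10.82, 10.87, 10.80 and 10.64, also lowest in culture 6. The activator genes AFT1 and AFT2 had ranges of 1.22-fold and 1.15-fold.

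Of the 20 iron uptake genes, 15 had cultures 3 and 6 as the 2 highest, against 5.78% of all genes above background. In 5 there was a 2-fold range, against 0.901% of all genes above background. The list's mean deviation was -0.09, -0.24, 0.28, -0.12, -0.27 and 0.44 in cultures 1 to 6. Among 12 copper and zinc genes, 4 had cultures 3 and 6 highest, against the same 5.78%. These 4 genes were CTR1 and CTR3, copper transporters, CUP1-1, a metallothionein, and ZRT3, a zinc exporter of the vacuole. CTR1 was at 12.17, 12.03, 12.48, 12.13, 11.95 and 12.42. The genes most like FIT2 were FIT3, ARN2, VMR1, FRE4 and ENB1, with r of 0.942 to 0.990. Without the 2 cultures farthest from the median of FIT2, r was 0.408 to 0.721 for 4 of them and -0.37 for VMR1, so these values rest largely on cultures 3 and 6.

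**Figure D4:**
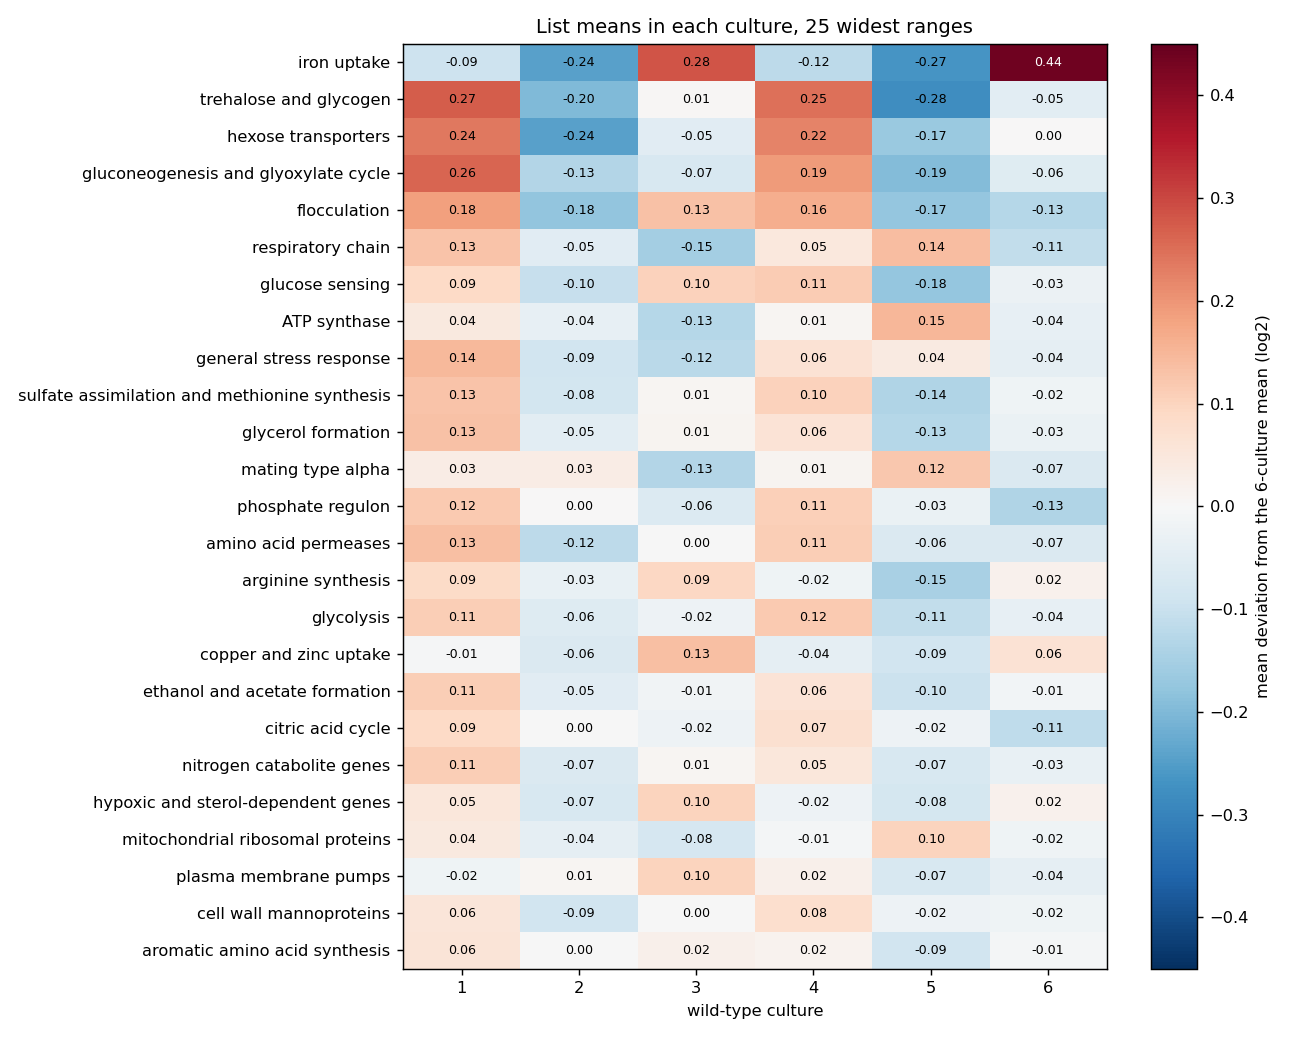
Mean deviation of each gene list from its 6-culture mean (log2, colour and number) in cultures 1 to 6, for the 25 lists with the widest ranges, widest at the top. Iron uptake is highest in cultures 3 and 6, at 0.28 and 0.44, and trehalose and glycogen in cultures 1 and 4, at 0.27 and 0.25.

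Over all 50 lists, the range of the list mean between cultures had a median of 0.143 on the log2 scale and went from 0.033 to 0.704. In 5 lists it was at least 0.3: iron uptake at 0.70, trehalose and glycogen at 0.55, hexose transporters at 0.48, gluconeogenesis and the glyoxylate cycle at 0.45, and flocculation, with 5 genes, at 0.36. With the median over the list in place of the mean, hexose transporters had 0.294, under that limit, and iron uptake had 0.437. Flocculation genes encode surface proteins that make cells adhere. FLO11 was at 6.23, 5.56, 5.74, 5.94, 5.39 and 5.57, and the list's mean was 0.18, -0.18, 0.13, 0.16, -0.17 and -0.13. Among the narrow ranges were those of pyrimidine synthesis, at 0.033, the proteasome, at 0.048, and histidine synthesis, at 0.052. Their order depended on the setting: pyrimidine synthesis had 0.0118 without culture 3, 0.0495 with each array centred on its median and 0.0611 with the median over the list. Ribosomal proteins had a range of 0.065 and RNA polymerase I of 0.078. Ribosome biogenesis had 0.113, or 0.0647 without culture 3.

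General stress genes did not move as 1 group. HSP12, a small membrane-associated stress protein, was at 8.94, 8.90, 8.74, 8.84, 9.80 and 9.65, so cultures 5 and 6 were high and the other 4 lay between 8.74 and 8.94. These are also the 2 cultures in which short genes deviated upwards most, and the log2 range of HSP12 was 1.06 with that trend along gene length and 0.87 without it. HSP26, another small heat shock protein, was at 8.27, 8.45, 8.14, 8.21, 8.43 and 8.13, and CTT1, the cytosolic catalase, had a 1.13-fold range. MSN4, a stress activator, was at 8.93, 8.28, 8.27, 8.72, 8.19 and 8.06, and MSN2, its paralog, had a 1.12-fold range. Of 25 stress genes above background, 10 had cultures 1 and 4 highest, against 13.8% of all genes above background. A few of the 48 genes were set apart by culture 1, alone or together with culture 2. TPO3, a polyamine exporter, was at 6.37 in culture 1 and between 7.17 and 7.79 in the others, and RPL41A, whose probe set can bind its near-identical copy, was at 8.48 in culture 1 and between 9.16 and 9.61 in the others. COS12, of a family of subtelomeric genes, was at 6.69 and 6.31 in cultures 1 and 2 and between 5.28 and 5.63 in the rest.

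The cultures also differed along gene length. Lengths were those of the genes in assembly R64, nearly all multiples of 3 (97.0%), so they appear to leave out the untranslated ends. Whether they count introns was not checked. Spearman's rho between length and the deviation of a gene, across 5325 genes, was -0.04, 0.14, 0.55, 0.39, -0.60 and -0.42 in cultures 1 to 6. In culture 5 the mean deviation was 0.099 among the shortest of 10 equal groups of genes, with a median length of 342 bp, and -0.101 among the longest group, at 3543 bp. In culture 3 the same values were -0.062 and 0.115. In culture 6 they were 0.031 and -0.040. Genes of the mitochondrial lists are short, but their deviations followed the trend only in part. Respiratory chain genes deviated by 0.13, -0.05, -0.15, 0.05, 0.14 and -0.11 in cultures 1 to 6, so they went with the trend in cultures 3 and 5 and against it in cultures 4 and 6. The range of 0.29 was 0.24 once the trend was removed. CYC1, cytochrome c, was at 11.31, 11.05, 10.68, 11.17, 11.38 and 10.67. For ATP synthase the range was 0.28 with the trend and 0.17 without it, and for mitochondrial ribosomal proteins 0.18 and 0.07. For core histones, whose genes are short too, it was 0.10 with the trend and 0.20 without it. For iron uptake it was 0.70 and 0.72, for trehalose and glycogen 0.55 and 0.46, and for hexose transporters 0.48 and 0.46. Of the 48 genes, 44 still had a 2-fold range without the trend. The array's poly-A control transcripts were lowest in culture 4, at 8.11, and highest in culture 2, at 8.94. For some yeast genes the array has control probe sets at both the 3′ and the 5′ end. The 3′ minus 5′ difference was highest in cultures 6 and 5 for SRB4, at 3.86 and 3.81, and lowest in them for WBP1, at 1.95 and 2.00. For the other such genes these cultures were neither the 2 highest nor the 2 lowest. The part of these controls in the length differences was not tested.

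**Figure D5:**
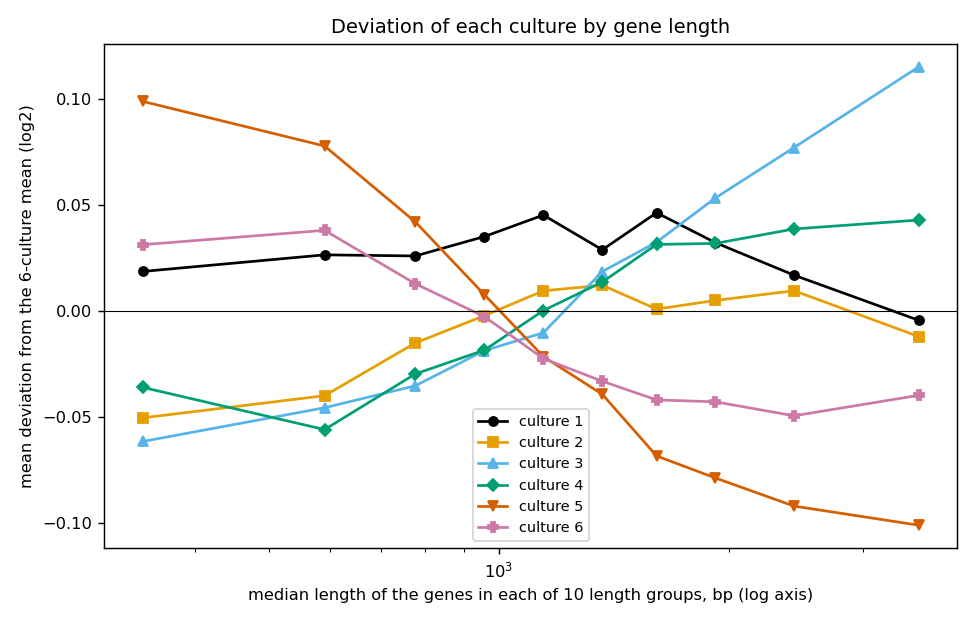
Mean deviation of the genes above background from their 6-culture means (log2) in 10 groups by gene length (median length in bp, log axis), 1 line per culture. Culture 5 runs from 0.099 down to -0.101, culture 3 from -0.062 up to 0.115, and culture 1 stays between 0.046 and -0.005.

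Seen over whole arrays, the first principal component of the 5325 genes held 44.8% of the variance between cultures, with scores of -6.21 and -6.45 for cultures 1 and 4 and 5.31 and 8.41 for cultures 2 and 5. The second held 23.3% and set culture 3, at 7.25, against cultures 1 and 5, at -5.04 and -3.75. The third held 18.7% and set culture 6, at 6.14, against culture 2, at -5.76. TMA10, MPC3, HXT7, GSY1 and GLC3 had the largest negative weights on the first. Across genes, deviations correlated at 0.49 between cultures 1 and 4, 0.28 between cultures 2 and 5, 0.095 between cultures 5 and 6, 0.056 between cultures 3 and 4 and 0.047 between cultures 3 and 6. The other 10 pairs were below 0, down to -0.61 between cultures 4 and 5. Deviations from a shared mean are negatively related on average, and the mean over the 15 pairs was -0.20. Over the 48 genes alone, cultures 1 and 4 had 0.58, cultures 2 and 5 had 0.66 and cultures 3 and 6 had 0.64, so cultures 3 and 6 stood out as a pair in the 48 genes and not over all genes. No gene above background differed by 2-fold between cultures 3 and 6, 1 did between cultures 2 and 5 and 5 did between cultures 1 and 4. Between culture 1 and each of cultures 2 and 5, 27 genes differed by 2-fold.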

How the data were processed

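RMA was the authors' method for these log2 values, per the submitters' processing notes, with 1 deposited value for each probe set and array and no version given in the sources used here. It corrects background, quantile normalizes and summarises probes, which hides any change common to most transcripts. In the platform annotation 7244 of 10928 probe sets named 1 gene, 1 several and 3683 none. S. cerevisiae genes of assembly R64 matched 5498, and 1746 were taken as S. pombe. Where a gene had more than 1 probe set (47 genes), the highest by mean was kept. For 114 genes the probe set can bind near-identical transcripts.

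The 3 deletion arrays were not used. Levels, SDs, ranges, list means and principal components were computed with Python 3.11.15, numpy 2.4.6 and pandas 2.3.3, and the scripts were tested on simulated data. Length trends were lowess curves (statsmodels 0.14.6, fraction 0.3), added after seeing the data. The members and lists were chosen with earlier results of these data known. Named genes were the strain markers, the 20 largest and 5 smallest SDs, the highest, lowest and up to 3 most variable members of each list with those above background on no array, 42 paralog families, and the 5 genes most like each of 4 lead genes. All others were chosen after their values were seen. The number of arrays limits the precision. No coordinates are printed because no build is named in the labels.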

Additional observations from a re-analysis of the deposited data

Results flagged for a closer look

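Among 318 named genes and 50 list means, 13 had a culture far from the other 5. In these the gap to the other 5 passed Dixon's criterion at 95% for 6 values. Chance flags about 1 in 20, and 13 of the 368 tested is fewer than that rate gives. The number of flags was thus not above chance, and the 13 are listed as descriptions only. Culture 1 was lowest for RPS19A and RPL39, ribosomal protein genes, at 12.76 and 13.41 while the other cultures were within 13.21 to 13.25 and 13.66 to 13.76, and for PMA1, the plasma membrane proton pump, at 13.33. Culture 3 was highest for PDR12, a weak-acid exporter, at 11.19, for TPK3, a protein kinase A subunit, at 10.6, for LEU3, the leucine pathway regulator, at 9.65, and for the mean deviation of pyrimidine synthesis, at 0.022. Culture 5 was lowest for GAL1, at 7.98, for STL1, a glycerol importer, at 5.37, and for TDH1, at 11.35. Culture 4 was lowest for HIS2, of histidine synthesis, at 10.57 and for PHM7 at 6.67, and culture 2 for NQM1, a transaldolase paralog, at 7.69.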

How the results depend on the processing

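The count of 5325 genes above background was 5245 to 5348 under the alternatives (a stricter background at the 99th percentile, means over arrays, averaged probe sets, probe sets that can cross-hybridise left out) and 5325 to 5330 without single cultures. The count of 48 genes with a 2-fold range was 44 to 51 under other scalings, filters and probe set choices, and 38 to 46 without single cultures; without culture 1, the lowest, all 38 were among the 48. Between 5 and 7 lists had a range of at least 0.3, and hexose transporters left this group, at 0.294, with the median over the list. The first component held 37.7% of the variance with each gene scaled to unit variance, where every gene weighs the same, and 43.2 to 54.0% without single cultures. Of 300 ranges of list means recomputed under alternatives, 29 moved by more than their spread, and of 300 recomputed without single cultures, 14 did, all in lists with ranges under 0.3. No paired analysis was possible because the labels do not say which of the 6 cultures share an isolate. Saturation at high levels was not tested, and quantile normalization hides changes shared by most transcripts.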

Other observations

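Some genes expressed as cells leave mitosis or enter G1 were highest in cultures 2 and 5, where glycogen genes were lowest. ASH1, a repressor of mating type switching in daughter cells, was at 12.42, 12.88, 12.68, 12.38, 12.78 and 12.58 in cultures 1 to 6, and DSE4, a glucanase that separates daughter from mother, was at 11.17, 11.63, 11.44, 11.28, 11.58 and 11.28. PCL9, a cyclin for the Pho85 kinase, was at 10.69, 10.98, 10.66, 10.65, 11.15 and 10.61, and CDC6, which loads the replicative helicase, was at 9.40, 9.93, 9.70, 9.26, 10.04 and 9.62. Cultures 2 and 5 were the 2 highest in each of these. Among the 9 genes of daughter cell separation they were the 2 highest in 4, and among 15 cyclin-related genes in 2, against 9.71% of all genes above background. DSE2, the member of the separation list with the widest range, 1.61-fold, went with the glycogen genes instead, at 11.39, 10.82, 11.22, 11.51, 10.96 and 11.27. CLB2, a cyclin gene of mitosis, did not have cultures 2 and 5 as the 2 highest. Nor did SIC1, EGT2 and PIR1, which are expressed as cells leave mitosis or enter G1. CTS1, the chitinase of the same process, was highest in culture 4 at 12.77 and lowest in culture 2 at 12.35, and the list's mean had a range of 0.09. These genes were chosen after their values were seen.

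Arginine, sulphur and nitrogen genes had few wide ranges. ARG3, ornithine carbamoyltransferase, had a 1.87-fold range, MET28, a regulator of sulphur genes, a 1.88-fold range and MET2, of homoserine acetylation, a 1.85-fold range. In MET2, cultures 1 and 4 were the 2 highest. They were so in 11 of 23 genes of sulfate assimilation and methionine synthesis, against 13.8% of all genes above background. DAL80, a repressor of nitrogen catabolite genes, was at 3.97 ± 0.12 (SD, n = 6), above background on 0 arrays.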
